A study of Mus musculus with 8 samples.

Results

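The domain described here is the stretch of mouse chromosome 8 from 120200000 to 121600000 (build mm10), which holds the forkhead genes Foxf1, Foxc2 and Foxl1, the large gene Gse1, and Irf8 and 1700018B08Rik. Its members are all peaks that lie in these limits in 3 lists of accessible chromatin. They number 464 of 172983 peaks in all: 225 in the D7 GLI1 list, 177 in that of the D7 control and 62 in that of the D5 control. Peaks that share 1 interval differ only in their summits, so the members make 148, 112 and 44 separate regions in these lists, of 121250 in the series. Across the lists they fall into 172 positions. The domain was selected on the presence of peaks in these same lists, namely gains near Foxf1 and the many regions of Gse1 absent at day 5, so the counts for these genes are a description and were not tested.

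The assay was ATAC-seq, which uses Tn5 transposase to cut and tag open DNA, in cardiac progenitors grown from mouse embryonic stem cells (line GLI1-FTA, strain A2Lox.cre). In the D7 GLI1 group, doxycycline at 500 ng/ml was given for 48 hours, between days 5 and 7, to overexpress GLI1 (3 libraries). The D7 control group (3 libraries) and the D5 control group (2 libraries) were untreated cells of the same line at day 7 and day 5. Because no control cells had doxycycline, effects of the drug and of GLI1 cannot be told apart. Each group has 1 deposited list, made from all its libraries together, so no difference below has a replicate check. The name of the D7 control list gives no day, and the list was taken as day 7 because it is named as the partner of the doxycycline list and the day 5 samples have a separate one, so all D7 control values below rest on this inference. Peaks give no RNA levels, so the labelled cell type was not checked against marker expression.

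GLI1 is a zinc finger transcription factor that acts when Hedgehog signalling is on. Foxf1, Foxc2 and Foxl1 lie close together in mammals and encode forkhead transcription factors of mesodermal and mesenchymal cells. Foxf1 and Foxl1 are known targets of Hedgehog signalling in gut and lung mesenchyme, and Foxc2 acts in vessels, lymphatics, somites and the heart outflow tract. Fendrr is a long noncoding RNA gene beside Foxf1 that is needed for normal heart and body wall development in mice. Gse1 encodes a protein found in a chromatin repressor complex with a histone demethylase, and Irf8 a transcription factor of blood and immune cells.

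The lists give each peak a fold, which is the authors' ratio of signal at the peak summit to the background. From fold and p-value, the number of reads stacked at each summit was recovered as a whole number, and its exact Poisson 95% interval is given in brackets, for counting error only. The background was 4.70 reads in the D7 GLI1 list and 4.56 in the D7 control list, 3.11% higher with GLI1. In the D5 list it was set peak by peak, from 0.376 reads upwards, and that lowest value is 12.1 times below the D7 control background. The shallowest summits listed had 13 reads in each D7 list and 4 reads at D5. A region absent from a list is one that was not called there, which does not mean closed chromatin.

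4 promoters of the domain are shown because they span the range of what was seen: one where reads rose with GLI1, and others with like or lower reads. Each is 300 bases from the RefSeq table for GRCm38.p6, 5′ to 3′ on the gene's own strand, and the capitals mark 21 bases centred on the D7 GLI1 summit.
Fendrr, chr8:121083061-121083360, minus strand: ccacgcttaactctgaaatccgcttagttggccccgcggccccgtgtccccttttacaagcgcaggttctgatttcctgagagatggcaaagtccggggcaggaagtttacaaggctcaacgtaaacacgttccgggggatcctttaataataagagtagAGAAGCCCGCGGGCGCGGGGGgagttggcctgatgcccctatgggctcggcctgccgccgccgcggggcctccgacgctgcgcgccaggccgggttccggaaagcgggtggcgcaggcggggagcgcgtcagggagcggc
Mthfsd, chr8:121108288-121108587, minus strand: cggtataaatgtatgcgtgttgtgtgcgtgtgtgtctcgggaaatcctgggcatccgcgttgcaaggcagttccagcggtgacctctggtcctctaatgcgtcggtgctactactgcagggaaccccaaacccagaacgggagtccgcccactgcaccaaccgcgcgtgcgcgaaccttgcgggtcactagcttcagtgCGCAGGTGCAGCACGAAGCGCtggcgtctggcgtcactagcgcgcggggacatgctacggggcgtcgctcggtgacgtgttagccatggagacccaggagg
Irf8, chr8:120736108-120736407, plus strand: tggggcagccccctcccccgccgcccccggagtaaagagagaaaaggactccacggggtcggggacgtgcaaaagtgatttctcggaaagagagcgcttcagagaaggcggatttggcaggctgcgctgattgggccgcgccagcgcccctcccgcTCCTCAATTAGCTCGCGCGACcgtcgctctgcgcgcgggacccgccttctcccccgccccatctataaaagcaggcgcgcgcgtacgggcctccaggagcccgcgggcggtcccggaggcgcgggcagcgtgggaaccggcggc
Gse1, chr8:120537159-120537458, plus strand: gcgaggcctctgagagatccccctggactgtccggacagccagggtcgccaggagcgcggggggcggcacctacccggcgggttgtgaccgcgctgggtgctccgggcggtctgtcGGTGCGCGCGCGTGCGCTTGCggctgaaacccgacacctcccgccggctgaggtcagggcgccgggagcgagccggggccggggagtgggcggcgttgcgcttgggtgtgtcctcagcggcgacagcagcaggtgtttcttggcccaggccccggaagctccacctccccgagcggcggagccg

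The Fendrr promoter is 64.7% G and C, with 31 CpG pairs. In the D7 GLI1 list a summit of 62 reads (47.5 to 79.5) fell inside it, with a fold of 11.1, and the accessible region covered all 300 bases. In the D7 control list the nearest region reached only the outermost 2 bases and no summit lay inside, and no D5 region overlapped it. The Mthfsd promoter held a summit in every list, of 129 reads (108 to 153) with GLI1, 154 (131 to 180) in the D7 control list and 33 at D5. At the Irf8 promoter, which is 70% G and C, the summit reads were 63 with GLI1, 80 (63.4 to 99.6) in the D7 control list and 19 at D5. The Gse1 promoter shown had 111 reads with GLI1, 127 (106 to 151) in the D7 control list and 39 at D5. Intervals overlapped between the D7 lists at Mthfsd, Irf8 and this Gse1 promoter, while at Fendrr only the D7 GLI1 list had a summit.

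The table holds 37 promoters in the domain, of 29 genes, and among the 6 named genes it matched Gse1, Irf8 and 1700018B08Rik. No promoter of Foxf1, Foxc2 or Foxl1 was among them, so the motif search below did not cover those genes. D7 GLI1 regions overlapped 13 of the 37, D7 control regions 13 and D5 regions 8. The GLI binding motif GACCACCCA was searched on both strands, which reads TGGGTGGTC on the other strand. It was in 0 of these 37 promoters, and in 83 of 32851 promoters of the same length in the genome (0.253%). With 1 mismatch allowed, 6 of the 37 held a match, against 6.74% of all promoters, and 3 of these 6 were overlapping promoters of the same noncoding gene, Gm33199. These letters being absent from promoter windows says nothing of GLI1 binding at the regions between genes, whose sequence was not used here.

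Across the whole domain, D7 GLI1 regions covered 102 kb (7.32% of its length), D7 control regions 80.4 kb (5.74%) and D5 regions 18.5 kb (1.32%). The median fold was 4.83 in the D7 GLI1 list, 6.21 in the D7 control list and 6.09 at D5. Of the 172 positions, 55 were in the D7 GLI1 list alone, 28 in the D7 control list alone and 9 in the D5 list alone. Both D7 lists but not D5 held 51, all 3 lists 25, the D7 GLI1 and D5 lists 3, and the D7 control and D5 lists 1. A region of the D7 GLI1 list that overlapped no D7 control region by even 1 base is called gained, and the opposite lost. The domain had 59 gained of 148 regions (39.9%, Wilson 95% interval 32.3 to 47.9), and over all chromosomes 39.0% of regions were gained. It had 29 lost of 112 regions (25.9%, 18.7 to 34.7), where the share over all chromosomes was 31.6%. Since the domain was chosen on gains in these lists, the shares over all chromosomes are given for scale only, and the intervals treat neighbouring regions as separate, so they cover counting error alone.

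**Figure D1:**
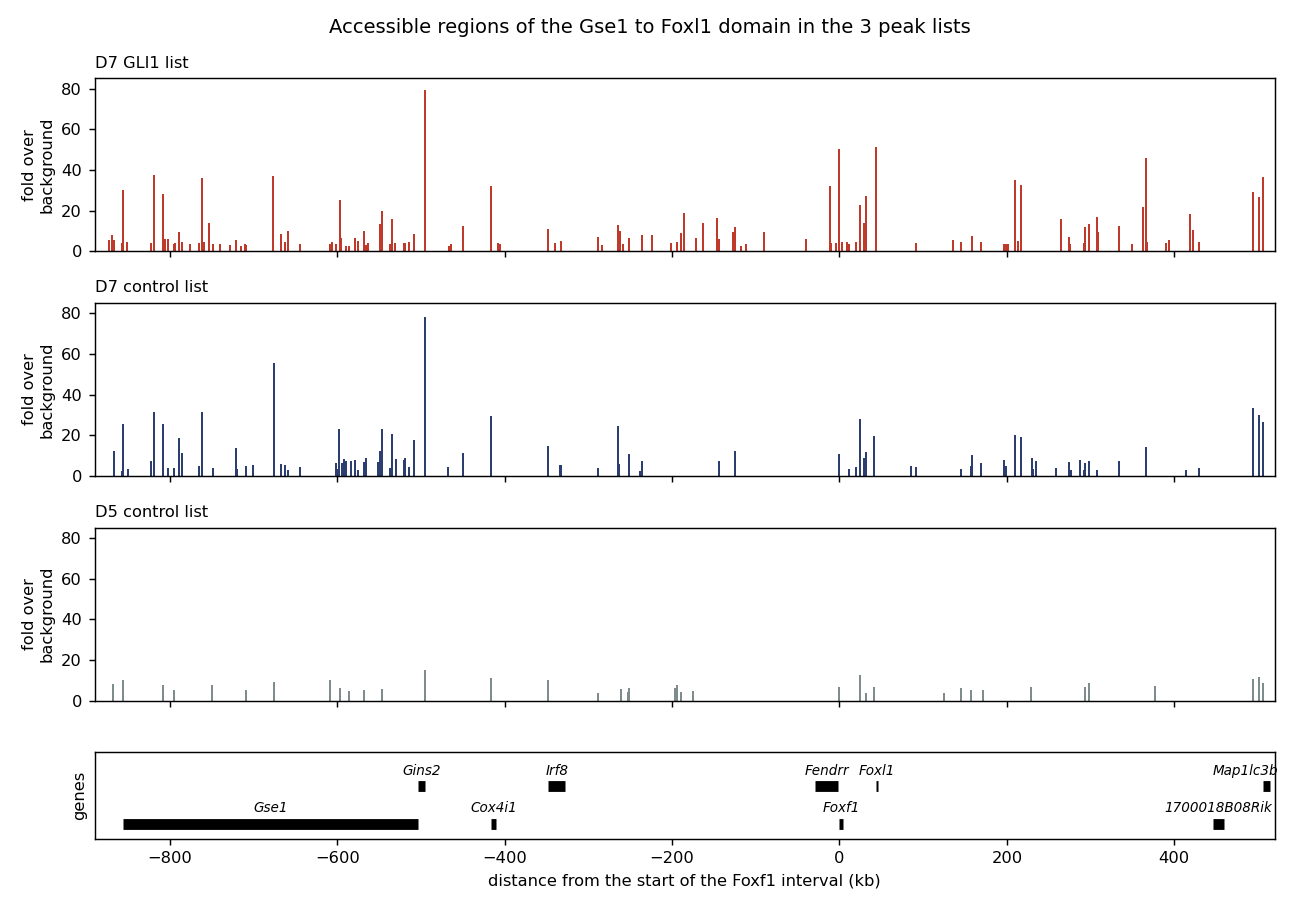
Fold over background (vertical axis) of each accessible region against the distance of its summit from the start of the Foxf1 interval in kb, for the D7 GLI1, D7 control and D5 control lists, with gene intervals below. The tall bars at Foxf1 and Foxl1 stand at 50.4 and 51.1 in the D7 GLI1 list and at 10.8 and 19.4 in the D7 control list, while the tallest bar, beside Gins2, is at 79.3 and 78.1.

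The forkhead cluster, from Fendrr to Foxl1 (121054882 to 121130644), had the highest median ratio of GLI1 to control fold of the 4 main stretches. It held 13 D7 GLI1 regions over 15.6 kb, 10 D7 control regions over 6.12 kb and 4 D5 regions over 2.38 kb. Of its D7 GLI1 regions 6 were gained (46.2%, 23.2 to 70.9), against 39.0% over all chromosomes, and 0 of its D7 control regions were lost, where that share was 31.6%. The count of lost regions depended on the overlap required, and was 6 of 10 when each pair had to share at least 50% of both regions. Of 7 positions shared by the D7 lists, 4 had a GLI1 fold at least 1.5 times the control fold and 0 the reverse. Over all chromosomes 13.6% of shared positions passed that ratio upwards and 13.7% downwards. The median ratio of GLI1 to control fold was 1.59 in the cluster and 1.06 over 24942 shared positions of the genome.

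The start of the Foxf1 interval (121084386 to 121088154), though not its end, lies under a region that was present in all 3 lists. At its best summit the D7 GLI1 list had 286 reads (254 to 321), the D7 control list 59 (44.9 to 76.1) and the D5 list 21 (13 to 32.1). The folds were 50.4 with GLI1, 10.8 in the D7 control list and 6.76 at D5, a ratio of 4.66 between the D7 lists. The D7 GLI1 region ran over 2628 bp with 4 summits and the D7 control region over 1334 bp with 2. Next to the start of the Foxf1 interval the D7 GLI1 list had a summit at −48 bp with 286 reads and the D7 control list one at −42 bp with 47, a ratio of folds of 5.83. Farther out, at −605 and −582 bp, the paired summits had 164 reads with GLI1 and 59 in the D7 control list, a ratio of 2.68. The summit next to the gene start was the higher one with GLI1, while in the D7 control list the intervals of the pair (34.5 to 62.5 and 44.9 to 76.1) overlapped.

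Within 5 kb of Foxf1 the D7 GLI1 list had 4 regions over 4096 bp, against 1 region of 1334 bp in the D7 control list and 1 of 861 bp at D5, where it was the widest region of the domain. The highest gained region of the domain lay inside Fendrr at 121072985 to 121074068, at −10.9 kb from the Foxf1 start, with 181 reads (156 to 209) and a fold of 31.9. A weaker gained region stood right next to it at 121074180, with 2 summits of 23 reads each. No D7 control or D5 region overlapped the Fendrr interval, against 4 of the D7 GLI1 list. Assigned to the nearest coding gene, Foxf1 had 6 gained and 0 lost regions, and 0 opened and 0 closed between the D5 and D7 control lists.

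The start of Foxc2 (121116171 to 121118895) was covered by 1 D7 GLI1 region of 3057 bp with 7 summits, the second widest of that list in the domain. This region ended at 121117821, before the end of the gene interval. The D7 control list had 3 separate regions at this place, and the D5 list 1 of 468 bp. The highest summit had 155 reads (132 to 181) with GLI1, 64 (49.3 to 81.7) in the D7 control list and 7 (2.81 to 14.4) at D5, with folds of 27.4, 11.7 and 3.80. Inside the gene interval, summits 3 bp apart had 67 reads with GLI1 and 17 in the D7 control list, a fold ratio of 3.68. Towards the end of the region, summits 93 bp apart had 28 reads with GLI1 and 27 in the D7 control list. The rise was thus seen around the start of the Foxc2 interval and not at its far summit. A region 2.66 kb before the gene had 79 reads with GLI1 and 48 in the D7 control list, a fold ratio of 1.59.

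At Foxl1 (121127685 to 121130644) the D7 GLI1 list had the widest region of the domain, 4281 bp with 9 summits. The D7 control list had 2 regions there, together 1589 bp with 3 summits, and the D5 list 1 of 465 bp. The highest summit had 290 reads (258 to 325) and a fold of 51.1 with GLI1, 107 reads (87.7 to 129) and 19.4 in the D7 control list, and 14 reads (7.65 to 23.5) and 6.77 at D5. These summits were not at the same place. The GLI1 summit lay at −220 bp from the start of the Foxl1 interval, whereas the highest D7 control and D5 summits lay at −1975 and −1977 bp. At −1949 bp the D7 GLI1 list had a summit of 191 reads (165 to 220), with a fold ratio of 1.73 over the D7 control list.

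Over the Foxl1 start itself, a gap of 2144 bp (121126254 to 121128397) separated the 2 D7 control regions, and no D5 region lay in it. The D7 GLI1 list had 4 summits in this gap, with 38 to 290 reads. Counts of whole regions miss this, because the wide D7 GLI1 region overlaps the control regions on both sides and counts as shared. By nearest-gene counts Foxl1 had 1 gained and 3 lost regions, and at the stricter −log10 q of 5 it had 2 and 2. The 3 lost ones lay 39.7 to 45.1 kb beyond the gene, away from these summits.

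Mthfsd, which lies between Foxf1 and Foxc2 and is named for a domain shared with a folate enzyme, had no higher fold with GLI1 at its promoter. The region there had a fold of 22.8 with GLI1, 27.9 in the D7 control list and 12.4 at D5, a D7 ratio of 0.818. A region inside Mthfsd had 24 reads in both D7 lists, and another, at 121092547 to 121092943, was gained with 24 reads (15.4 to 35.7), so the gene had 1 gained and 0 lost regions, as Foxc2 did. In all, 33 D7 GLI1 summits lay between Fendrr and 5 kb past Foxl1, against 13 in the D7 control list and 8 at D5. Of the 33, 11 had a D7 control summit within 150 bp and 22 had none. Fold ratios of the 11 ranged from 0.818 to 5.83.

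**Figure D2:**
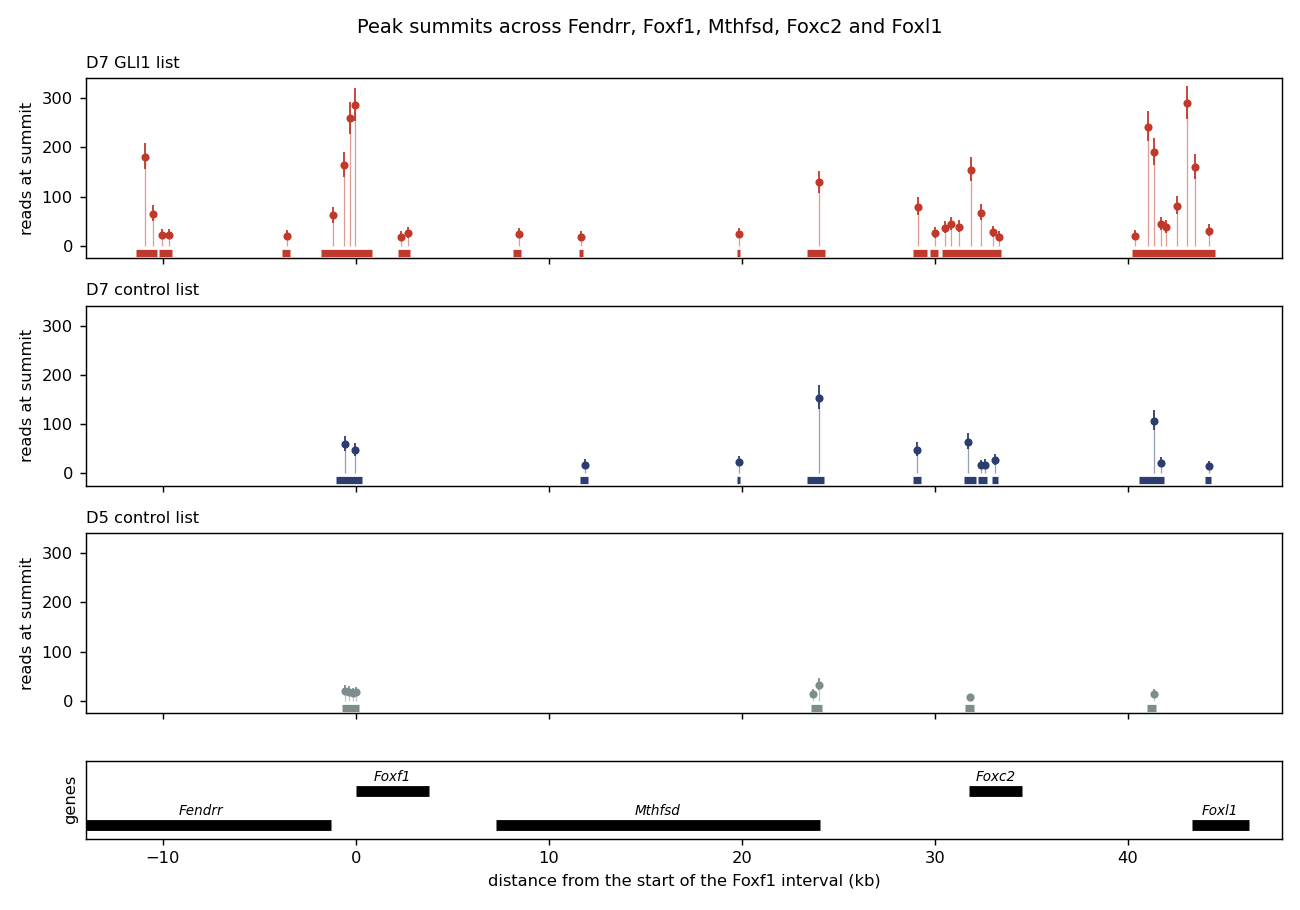
Reads at each peak summit (vertical axis, points, with exact Poisson 95% intervals for counting error) against distance from the start of the Foxf1 interval in kb, for the D7 GLI1, D7 control and D5 control lists. Thick bars at the foot of each panel mark the accessible regions, and the summit over the Foxl1 start, of 290 reads, has no counterpart in the D7 control panel while Mthfsd has 129 and 154 reads.

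The gene-poor stretch between Irf8 and Fendrr (120756695 to 121054881, 298 kb) had 24 D7 GLI1 regions, 9 D7 control regions and 8 D5 regions, covering 14.1, 5.44 and 2.68 kb. Of the 24, 17 were gained (70.8%, 50.8 to 85.1), against 39.0% over all chromosomes. Of the 9 D7 control regions 1 was lost (11.1%, 1.99 to 43.5), where that share was 31.6%. The annotation has no coding gene here, only noncoding RNA genes. Gained folds ran from 2.63 to 18.8 with a median of 6.14, and the median over all gained regions of the genome was 3.86. The highest of these were at 120898693 to 120899473, with 106 reads (86.8 to 128) and a fold of 18.8, and at 120937183 to 120937918, with 93 reads (75.1 to 114) and 16.5. They lay at −185 and −147 kb from the Foxf1 start. The single lost region had 13 reads, the lowest number listed. The 7 positions shared by the D7 lists had a median fold ratio of 0.947, with 3 higher and 4 lower with GLI1. Over all chromosomes the median ratio was 1.06, with 14687 shared positions higher and 10255 lower. At a stricter −log10 q of at least 5 the gained regions of this stretch numbered 11 of 18 (61.1%). The share over all chromosomes was not computed at that threshold. Whether a position counts as gained or shared depends on its being called in the D7 control list, so gained regions may include positions just under the threshold there.

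Control cells were also compared between days in this stretch. A D7 control region with no D5 region is called opened, and a D5 region with no D7 control region closed. Here 7 of 9 D7 control regions were opened (77.8%, 45.3 to 93.7), against 55.0% over all chromosomes, and 6 of 8 D5 regions closed (75%, 40.9 to 92.9), against 50%. Both intervals held the share over all chromosomes, and at the stricter −log10 q of 5 the closed regions numbered 3 of 4 (75%). Of these 6 closed regions, 3 overlapped D7 GLI1 regions, where over all chromosomes 2472 of 19719 closed regions did. The highest of the 6 was at 120890114, with 29 reads (19.4 to 41.6) and a fold of 7.62 at D5. The D7 GLI1 region at that place had 25 reads and a fold of 4.56. Over the domain 4 of 59 gained regions overlapped a D5 region, against 13.5% of gained regions over all chromosomes, and 1 of 29 lost regions did, against 8.95%.

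Beyond Foxl1, up to 1700018B08Rik (121130645 to 121530775, 400 kb), there were 31 D7 GLI1, 27 D7 control and 8 D5 regions. Gained regions numbered 13 (41.9%, 26.4 to 59.2) and lost 10 (37%, 21.5 to 55.8), against 39.0% and 31.6% over all chromosomes. Of 17 shared positions 11 had a higher fold with GLI1 and 6 a lower one, against 14687 and 10255 of 24942 over all chromosomes. The ratio of 1.5 was passed upwards by 7 of the 17 and downwards by 1. Over all chromosomes 13.6% passed it upwards and 13.7% downwards. The median ratio was 1.34 in this stretch and 1.06 over all chromosomes. The largest ratio of the domain, 5.85, was at 121391301 to 121392303. The D7 GLI1 list had 95 reads (76.9 to 116) over 1003 bp there and the D7 control list 15 (8.40 to 24.7) over 200 bp. These summits were at different places, since the D7 GLI1 summit, 121392093, lay outside the D7 control region (121391803 to 121392002). A second position, at 121449610 to 121451002, had 260 reads (229 to 294) with GLI1 and 79 (62.5 to 98.5) in the D7 control list, a ratio of 3.18. A gained region 362 kb past the Foxf1 start, at 121446082 to 121447374, stood beside it with 122 reads (101 to 146) and a fold of 21.6. One more at 121502406 to 121503469 had 102 reads (83.2 to 124) and a fold of 18.1. Lost regions were lower: the highest 3 of this stretch, at 121313595, 121371276 and 121319303, had 47, 42 and 41 reads in the D7 control list.

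1700018B08Rik, a coding gene known by its clone name only, had no region in its interval (121530776 to 121544339) or within 5 kb in any of the 3 lists. The 7 gained and 1 lost regions that count as nearest to it all lay outside that distance, in the stretch towards Foxl1. Fbxo31 and Map1lc3b, which follow it, encode a ubiquitin ligase subunit and an autophagy protein. Their promoters had folds of 29.1 and 36.7 with GLI1, and of 33.3 and 26.6 in the D7 control list. At Fbxo31 the reads were 165 (141 to 192) with GLI1 and 184 (158 to 213) in the D7 control list. At Map1lc3b they were 208 (181 to 238) and 147 (124 to 173), where the intervals did not overlap. Either gene had 0 gained and 0 lost regions.

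In Gse1 (120228501 to 120581383, 353 kb) most positions shared by the D7 lists had a lower fold with GLI1. The gene had 57 D7 GLI1, 52 D7 control and 14 D5 regions, covering 36.8, 40.2 and 5.22 kb. Of these, 16 D7 GLI1 regions were gained (28.1%, 18.1 to 40.8) and 16 D7 control regions lost (30.8%, 19.9 to 44.3), and over all chromosomes the shares were 39.0% and 31.6%. Of 34 shared positions, 3 passed the ratio of 1.5 upwards (8.82%, 3.05 to 23.0) and 12 downwards (35.3%, 21.5 to 52.1), and the median ratio was 0.846. The fold was higher with GLI1 at 12 and lower at 22 of them. Over all chromosomes it was higher at 14687 and lower at 10255 of 24942 shared positions. Shared positions were wider with GLI1 at 13 and narrower at 20, where 54.2% of those over all chromosomes were wider. In the cluster from Fendrr to Foxl1, 5 of 7 were wider and 1 was narrower.

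The 5 smallest ratios of the domain were all in Gse1, and from 0.351 to 0.429. Each ratio took the highest summit of each list in a position, and these were not always at the same place. At 120517677 and 120494585 the D7 control summits, 120518196 and 120495106, lay outside the D7 GLI1 regions. At 120517677 to 120518716 the D7 GLI1 list had 17 reads (9.90 to 27.2) and the D7 control list 49 (36.3 to 64.8). At 120494585 to 120495420 there were 15 reads (8.40 to 24.7) with GLI1 and 40 (28.6 to 54.5) in the D7 control list. At 120363349 to 120364556 the reads were 30 (20.2 to 42.8) with GLI1 and 76 (59.9 to 95.1) in the D7 control list. Intervals did not overlap at these 3 positions. At 120298406 there were 26 reads (17 to 38.1) with GLI1 and 62 (47.5 to 79.5) in the D7 control list. At 120564971 there were 21 (13 to 32.1) with GLI1 and 49 (36.3 to 64.8) in the D7 control list. Intervals did not overlap there either. The highest lost regions of Gse1, at 120492349 and 120500501, had 44 and 41 reads in the D7 control list. Its highest gained region, at 120331005 to 120331874, had more, with 78 reads (61.7 to 97.3) and a fold of 13.9 with GLI1.

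Wide regions of Gse1 ranged from lower to like folds with GLI1. At 120407322 to 120410799, among the widest of both D7 lists, there were 211 reads (183 to 241) with GLI1 and 308 (275 to 344) in the D7 control list, with folds of 37.2 and 55.6, a ratio of 0.669, and the intervals did not overlap. The widest D7 control region of the domain, 3665 bp with 8 summits at 120535737 to 120539401, had 111 reads and a fold of 19.7 with GLI1, and 127 reads and a fold of 23 in the D7 control list. This region spans the Gse1 promoter shown above. The third widest D7 control region, at 120486250, was listed at 25.1 fold with GLI1 and 23.2 fold in the D7 control list. These folds came from different places, with the summit at 120488095 with GLI1 and at 120486668 in the D7 control list. One position went strongly the other way, at 120424985 to 120426127, with 57 reads (43.2 to 73.9) with GLI1 and 16 (9.15 to 26) in the D7 control list, a ratio of 3.33.

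**Figure D3:**
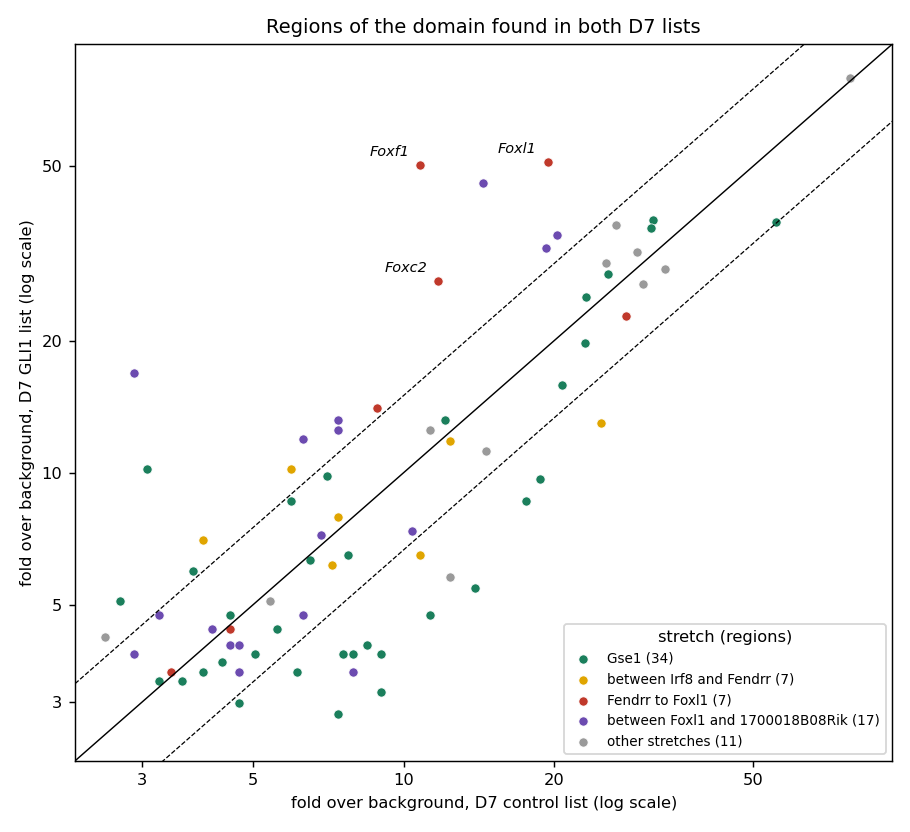
Fold in the D7 GLI1 list (vertical, log scale) against fold in the D7 control list (horizontal, log scale) for the 76 positions of the domain in both, coloured by stretch, with the line of equal folds and dashed lines at a ratio of 1.5 either way. Foxf1, Foxc2 and Foxl1 lie above the upper dashed line, and 12 of the 34 Gse1 positions lie below the lower one.

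Over the whole domain the counts of higher and lower folds were close. Of 76 shared positions 17 (22.4%, 14.5 to 32.9) passed the ratio of 1.5 upwards and 16 (21.1%, 13.4 to 31.5) downwards, and the median ratio was 0.975. Over all chromosomes these shares were 13.6% and 13.7%. Gins2, a DNA replication gene beyond Gse1, had the highest region of the domain in every list, with 451 reads with GLI1, 433 in the D7 control list and 74 at D5. The region at Emc8 and Cox4i1, genes of protein insertion and of respiration, had 181 reads with GLI1, 162 in the D7 control list and 38 at D5, and was the third widest at D5. These gene starts showed D7 ratios of 1.02 and 1.09.

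Irf8 (120736358 to 120756694) had 3 regions within 5 kb in each D7 list, over 1226 bp with GLI1 and 1521 bp in the D7 control list, and 1 of 242 bp at D5. Its promoter had a D7 fold ratio of 0.770. Inside the gene, a region at 120751936 had 28 reads with GLI1 and 29 in the D7 control list. A lost region at 120750694 had 28 reads in the D7 control list, and a gained one at 120743922 had 22 with GLI1. Both were low, and the higher changes on this side of Foxf1 lay past Irf8, in the gene-poor stretch.

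Between days 5 and 7 in control cells, 86 of 112 D7 control regions of the domain were opened (76.8%, 68.2 to 83.6), and 55.0% were opened over all chromosomes. Of the 44 D5 regions 12 were closed (27.3%, 16.3 to 41.8), and 50% were closed over all chromosomes. Gse1 held 45 of the 86 opened regions and 3 of the 12 closed ones. The highest opened regions of Gse1 were at 120264673 to 120266520, with 174 reads (149 to 202), at 120322605 to 120323988, with 173 (148 to 201), and at 120549078 to 120550560, with 114 (94.0 to 137). One between Irf8 and Fendrr, at 120819627 to 120821014, had 137 reads (115 to 162), and one past Foxl1, at 121293816 to 121295182, had 112 (92.2 to 135). The stretch from Fendrr to Foxl1 had 6 opened and 0 closed, and its 4 D5 regions, at Foxf1, Mthfsd, Foxc2 and Foxl1, were also in both D7 lists. The lower depth of the D5 list moves with these counts, and its part in them was not tested.

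Closed regions had few reads at D5. The highest fold was 10.3 in Gse1 at 120475558, from 20 reads (12.2 to 30.9). After 120890114, given above, came 121461245 with 13 reads and a fold of 7.40, 120887601 with 20 reads and 6.10, and 120823132 with 14 reads and 5.74. Of the D7 GLI1 regions 117 of 148 were absent at D5 (79.1%), against 56.9% over all chromosomes, and 10 of 44 D5 regions were absent with GLI1 (22.7%), against 46.7%. Both D7 lists held 31 of the 44 D5 regions, where over all chromosomes both held 47% of D5 regions. The widest D5 regions of the domain, at Foxf1, Fbxo31 and Cox4i1, were among those in both D7 lists.

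**Figure D4:**
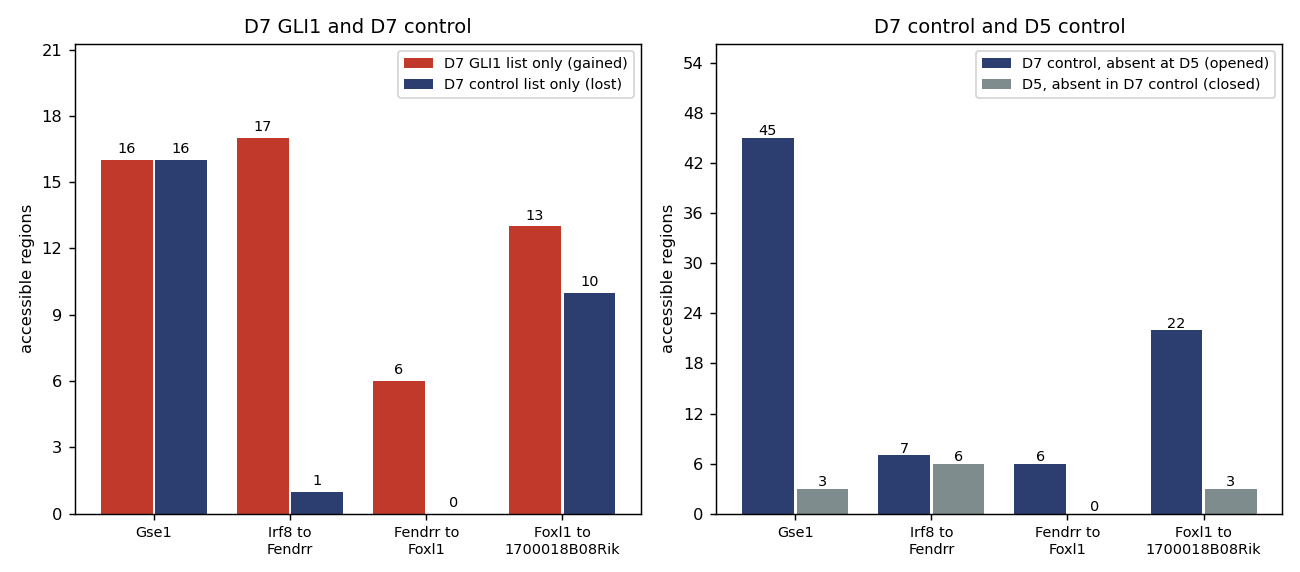
Numbers of accessible regions (vertical axis) by stretch: on the left those of the D7 GLI1 list with no D7 control region (gained) and of the D7 control list with no D7 GLI1 region (lost), on the right those of the D7 control list with no D5 region (opened) and of the D5 list with no D7 control region (closed). Between Irf8 and Fendrr 17 regions were gained and 1 lost, in Gse1 16 and 16, and Gse1 had 45 opened and 3 closed.

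Other genes of Hedgehog signalling, forkhead paralogues and genes of heart and gut mesenchyme give a frame for these counts. In this list of 20 genes, 68 of 129 D7 GLI1 regions were gained (52.7%) and 27 of 95 D7 control regions lost (28.4%). Over all chromosomes these shares were 39.0% and 31.6%. More gained than lost regions were found at 14 genes, fewer at 4, and equal numbers at 2. Of 15227 coding genes with a D7 region 34.4% had more gained and 20.5% fewer. The listed genes were not matched to these for number of regions, on which such counts depend, so the shares are not like for like. Foxf2, the paralogue of Foxf1, had 7 gained and 1 lost, and Foxc1, the paralogue of Foxc2, 1 and 4. Gli2 and Wnt2b, a transcription factor of the Hedgehog pathway and a Wnt ligand of mesenchyme, had 6 and 1, and 4 and 0. Tcf21, a factor of epicardium and mesenchyme, had 2 and 5. In the domain Foxf1 had 6 gained and 0 lost regions and Foxc2 1 and 0, the last becoming 2 and 3 with a reciprocal overlap of at least 50%. These counts are small, and differences between paralogues were not tested.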

How the data were processed

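ATAC-seq libraries from 8 samples are represented by 3 deposited peak lists, 1 per group. Per the submitters' processing notes, the tools were MACS2 2.1.1, Bowtie2 2.3.2, Picard and SAMtools 1.5, with build mm10. For each peak the authors deposited a fold enrichment (a ratio), a −log10 p and a −log10 q. The deposited score column holds 10 times the −log10 q, rounded down, and the last column the offset of the summit. Depth is known only through the backgrounds given above, since read totals were not used here.

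Whole reads at each summit were recovered from the deposited fold, as (reads + 1) over (background + 1), and checked against the Poisson p. Distinct intervals were taken as regions. Regions of 2 lists were shared at an overlap of at least 1 base. The fold ratio of a shared position took the highest summit of each list, and these summits may lie at different places. Coding genes within 100 kb were assigned by RefSeq gene intervals (GRCm38.p6), which give no strand or exons, so exon or intron status is not stated. Positions are 1-based. Python 3.11.15, pandas 2.3.3 and scipy 1.17.1 were used, and the steps were tested on simulated data.

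With 1 list a group there is no test between conditions, and only shares with Wilson 95% intervals and summit reads with exact Poisson 95% intervals are given. The domain, its genes and the list of 20 genes were chosen with earlier results of these data known. Regions named are the 5 with the highest fold in each class, the 5 largest and 5 smallest fold ratios, the 3 widest of each list and all within 5 kb of the small genes. The pairing of summits within 150 bp, the Foxl1 gap, other single regions and the genes picked from the list of 20 were chosen after their values were seen. Alternatives covered overlap, threshold, list length, merging, limits, fold scale, gene assignment and motif mismatches.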

Additional observations from a re-analysis of the deposited data

How the results depend on the processing

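No paired analysis was possible because the libraries of a group were pooled into 1 list, and leaving out a library was not possible either. Of the counts for the whole domain, gained regions stayed within 1.5 times of 59 under all 7 alternatives (46 to 81). They outnumbered lost ones under each, as they did over all chromosomes in the main setting, with 16766 gained and 12271 lost. Shares over all chromosomes were not computed for the alternatives, so this order is not particular to the domain. Lost regions went from 29 to 45 with a reciprocal overlap of at least 50% and to 18 with regions less than 500 bases apart merged. Closed regions went from 12 of 44 to 34 of 44 with the reciprocal overlap and to 7 of 30 at the stricter −log10 q of 5. D5 regions absent with GLI1 went from 10 to 35 with the reciprocal overlap, where D7 GLI1 regions had a median width of 442 bp and D5 regions 360 bp. The causes of these shifts were not tested. D7 GLI1 regions absent at D5 went from 117 of 148 (79.1%) to 72 of 98 (73.5%) when lists had equal length. Promoters with the GLI motif went from 0 to 6 with 1 mismatch. In Gse1, gained regions went from 16 of 57 to 28 of 57 with the reciprocal overlap. They went to 10 of 39 at the stricter −log10 q of 5, and lost regions from 16 of 52 to 7 of 38 with merging. Between Irf8 and Fendrr, gained regions went from 17 of 24 (70.8%) to 11 of 18 (61.1%) at that −log10 q. Lost regions there went from 1 to 0 at it and to 2 with the reciprocal overlap. From Fendrr to Foxl1, lost regions went from 0 to 6 with the reciprocal overlap and to 1 by summits. By nearest-gene counts, the sign of gained minus lost changed for Foxc2 (1 to −1, reciprocal overlap) and for Gse1. By these counts Gse1 had 18 gained and 16 lost regions. Its difference went from 2 to −1 at the stricter −log10 q of 5 and to −7 when lists had equal length. For Foxl1 the difference went from −2 to 0 at the stricter −log10 q of 5. For Irf8 it went from 3 to 0 both at that −log10 q and when lists had equal length. Counts of fold ratios past 1.5 and the covered lengths kept within 1.5 times. By percentile within each list, 40 of 76 shared positions were higher with GLI1 and 36 lower, a count not made over all chromosomes. The reads at a summit sum over all libraries of a group, so 1 library could supply a change.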
